A study of Homo sapiens with 8 samples.

Results

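ADRA2C, CACNA1H, AGRN and EFNA2 are 4 genes known mainly from neurons and synapses that carry hotspots of DNA damage arising when the ubiquitin ligase TRAIP is removed. They hold 5 of the 546 conserved γ-H2AX peaks, 1 each at ADRA2C, AGRN and EFNA2 and 2 at CACNA1H. The 4 genes were selected on their peaks, ADRA2C because its peak is the widest and CACNA1H because it has a pair, so the presence and width of these peaks and the number at each gene are descriptions and no test was made on them. ADRA2A, ADRA2B, CACNA1G, CACNA1I, EFNA1 and EFNA3, 6 relatives of the same families, served for comparison.

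The peaks come from HCT116, a human colorectal carcinoma cell line, in which TRAIP carries an auxin-inducible degron (TRAIP-mAID) and the plant F-box protein OsTIR1 delivers the tagged protein for degradation once auxin (IAA) is added. All 8 samples, treated and untreated, came from this modified line, were arrested in G1 with 20 μM lovastatin for 24 h and were released with 2 mM mevalonic acid, with S-phase entry about 12 h later. Chromatin was precipitated with an antibody against H2AX or against γ-H2AX, without or with IAA, which makes 4 groups of 2 repeats. Each interval in the list was called in γ-H2AX chromatin with IAA over γ-H2AX chromatin without IAA, in both repeats. A peak here therefore means more γ-H2AX signal with IAA than without. The methods do not name the H2AX samples in this call. The list gives a chromosome, a start and an end, with no height and no value for a sample, so neither the spread between repeats nor the number of reads behind a peak can be read from it. It holds no expression values either, and whether these genes are transcribed in a colon line was not analysed here.

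γ-H2AX is the histone variant H2AX phosphorylated on serine 139, which kinases of the damage response place around broken or stalled DNA. TRAIP works at the replication fork, where it ubiquitylates proteins at stalled or converged replisomes. ADRA2C encodes the α2C adrenoceptor, which couples to Gi proteins and restrains noradrenaline release from nerve endings, and CACNA1H encodes the pore of the Cav3.2 T-type calcium channel, which opens at low voltage. AGRN encodes agrin, the heparan sulphate proteoglycan that motor axons release to cluster acetylcholine receptors through LRP4 and MuSK, and EFNA2 encodes ephrin-A2, a membrane-anchored ligand of EphA receptors in axon guidance.

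The sequence beneath the peaks is shown first, because the base composition described below can be read from it. All stretches are from hg38, plus strand, on which all 4 genes are transcribed, and capitals mark CpG sites. The last 250 bases before the outermost start of ADRA2C, all inside its peak, were 86.8% G or C and held 46 CpG sites. The coding part of its peak, which begins at the start codon, held 19 CpG sites in 123 bases. The corresponding 250 bases before EFNA2 held 36 CpG sites, and the 187 bases at which its peak reaches into the first intron held 32. The upstream end of the AGRN peak follows.
ADRA2C before the start, chr4:3766098-3766347: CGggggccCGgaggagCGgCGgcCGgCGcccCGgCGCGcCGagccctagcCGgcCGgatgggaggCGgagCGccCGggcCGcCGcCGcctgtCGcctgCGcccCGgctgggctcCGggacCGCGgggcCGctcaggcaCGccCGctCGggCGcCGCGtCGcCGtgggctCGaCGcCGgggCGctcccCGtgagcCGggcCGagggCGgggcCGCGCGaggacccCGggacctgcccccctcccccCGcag
ADRA2C coding, chr4:3766607-3766729: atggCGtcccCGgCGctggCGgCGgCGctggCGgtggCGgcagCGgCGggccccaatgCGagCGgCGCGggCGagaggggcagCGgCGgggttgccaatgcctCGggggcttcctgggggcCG
EFNA2 before the start, chr19:1285623-1285872: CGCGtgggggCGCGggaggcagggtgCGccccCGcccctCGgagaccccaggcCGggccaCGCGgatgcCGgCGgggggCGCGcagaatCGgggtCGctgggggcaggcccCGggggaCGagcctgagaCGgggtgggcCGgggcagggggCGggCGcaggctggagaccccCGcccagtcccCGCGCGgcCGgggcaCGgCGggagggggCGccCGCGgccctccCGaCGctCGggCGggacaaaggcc
EFNA2 first intron, chr19:1286309-1286495: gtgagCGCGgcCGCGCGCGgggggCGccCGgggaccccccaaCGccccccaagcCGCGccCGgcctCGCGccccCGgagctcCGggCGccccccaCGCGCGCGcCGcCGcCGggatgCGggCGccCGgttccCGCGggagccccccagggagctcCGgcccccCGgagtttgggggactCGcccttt
AGRN upstream end of the peak, chr1:1019754-1019869: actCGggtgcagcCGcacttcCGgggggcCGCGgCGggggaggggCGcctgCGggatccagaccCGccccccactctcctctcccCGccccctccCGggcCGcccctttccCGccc
For contrast, the matching 250 bases before 2 relatives without a peak are given. ADRA2A had 22 CpG sites there at 68.8% G or C, and EFNA1 had 24 at 73.2%. They do not stand for all 6 relatives, since ADRA2B, also without a peak, had 79 to 81% in 200-bp windows centred from 250 to 50 bp before its start.
ADRA2A before the start, chr10:111076779-111077028: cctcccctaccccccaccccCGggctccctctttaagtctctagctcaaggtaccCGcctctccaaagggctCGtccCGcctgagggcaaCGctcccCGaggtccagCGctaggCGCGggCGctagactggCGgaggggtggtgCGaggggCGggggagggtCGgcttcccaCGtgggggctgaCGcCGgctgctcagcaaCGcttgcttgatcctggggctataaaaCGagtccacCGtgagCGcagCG
EFNA1 before the start, chr1:155127626-155127875: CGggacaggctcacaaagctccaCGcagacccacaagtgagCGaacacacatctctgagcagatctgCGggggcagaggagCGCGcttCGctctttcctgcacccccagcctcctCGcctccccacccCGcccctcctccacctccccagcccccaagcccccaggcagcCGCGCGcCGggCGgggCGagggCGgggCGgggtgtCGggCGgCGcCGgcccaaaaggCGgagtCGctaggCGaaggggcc

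At ADRA2C, the peak covered chr4:3765423-3766729, a width of 1307 bp. It was the widest of the list, where the median was 308 bp and the quartiles 254 and 406 bp. The next 3 were 1116 bp at CDK2AP1, 1105 bp at BRD3 and 1084 bp at CMIP. Once peaks within 1 kb of each other were merged, it ranked 3. The peak reached from 925 bp before the outermost transcription start (TSS) of the gene to 381 bp after it, and its midpoint lay 272 bp upstream of that start and 309 bp upstream of the start of the canonical transcript. Both annotated starts were inside. Upstream sequence made up 962 bp of the peak, 5′ UTR 222 bp and coding sequence 123 bp, counted on the canonical transcript. ADRA2C is a short gene of 2179 bp, and the peak covered its beginning and no more.

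The ADRA2C peak held 218 CpG sites, the highest count of the 546. Per 100 bp it had 16.7 sites and ranked 114, with quartiles of 12.3 and 16.4 over all peaks. Its GC content was 81.3% (rank 172), inside the upper part of a list whose quartiles were 76.2 and 81.9%. The ratio of observed to expected CpG, which is near 1 where CpG has not been depleted, was 1.01 (rank 182; median of all peaks 0.953). The peak at ADRA2C, unmerged, was thus first in width and in CpG number, a count that grows with width. In the measures of composition it ranked 114 to 182 of the 546.

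CACNA1H had a pair of peaks at its beginning. The first, chr16:1152385-1153026, was 642 bp wide (rank 36) and lay wholly upstream, from 721 to 80 bp before the outermost start. The second, chr16:1153249-1153474, was 226 bp wide (rank 488), close to the narrowest peak of the list at 213 bp, and had its midpoint 256 bp after that start. It took in 222 bp of 5′ UTR and the first 4 bp of an intron. The pair was parted by 222 bp, the third smallest of 12 gaps under 1 kb between neighbouring peaks, and spanned 1090 bp in all. With peaks within 1 kb merged it counted as 1 peak and ranked 8 in width.

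The starts of CACNA1H that lie nearest fell in the gap and not in a peak. The outermost start, 1153106, was 80 bp from the first peak, and the start at 1153241, used by 4 of the 12 annotated transcripts, was 8 bp from the second. The gap itself was 87.4% G or C with 44 CpG sites, a GC content between those of the peaks on either side. The first peak had 79.0% GC (rank 277) and 89 CpG sites, and the second 88.1% GC (rank 3) and 43 CpG sites, or 19.0 per 100 bp (rank 18). Guanine also exceeded cytosine in the second peak, with a skew, the difference of G and C over their sum, of 0.226. Of the 440 protein-coding genes with a peak, 10 had more than 1, and in 7 of these the outermost start lay between peaks (CCDC85C, CACNA1H, RAC3, USF2, AGPAT3, and MRPS6 and SLC5A3, which share theirs).

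AGRN carried a peak of 406 bp (rank 136), chr1:1019754-1020159, with 366 bp upstream and 40 bp in the 5′ UTR. Its midpoint was 164 bp before the outermost start. The gene has 9 distinct annotated starts, of which 2, 3 bp apart, were in the peak, while the other 7 lay 13947 to 31827 bp farther in and had no peak. GC content was 83.3% (rank 81). The 56 CpG sites came to 13.8 per 100 bp, under the list's median of 14.4, and the ratio of observed to expected CpG, 0.798, ranked 444, the lowest of the 5 peaks.

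EFNA2 carried a peak of 929 bp, chr19:1285567-1286495, which ranked 10 in width, or 20 with peaks within 1 kb merged. Of the 5 peaks it reached farthest into its gene. It began 306 bp before the single annotated start and ended 622 bp after it, with the midpoint 158 bp downstream. The 296 bp of 5′ UTR and 140 bp of coding sequence of the first exon were covered whole, along with 187 bp of the first intron. GC content was 83.5% (rank 71), and the 158 CpG sites (rank 7) came to 17.0 per 100 bp.

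**Figure D1:**
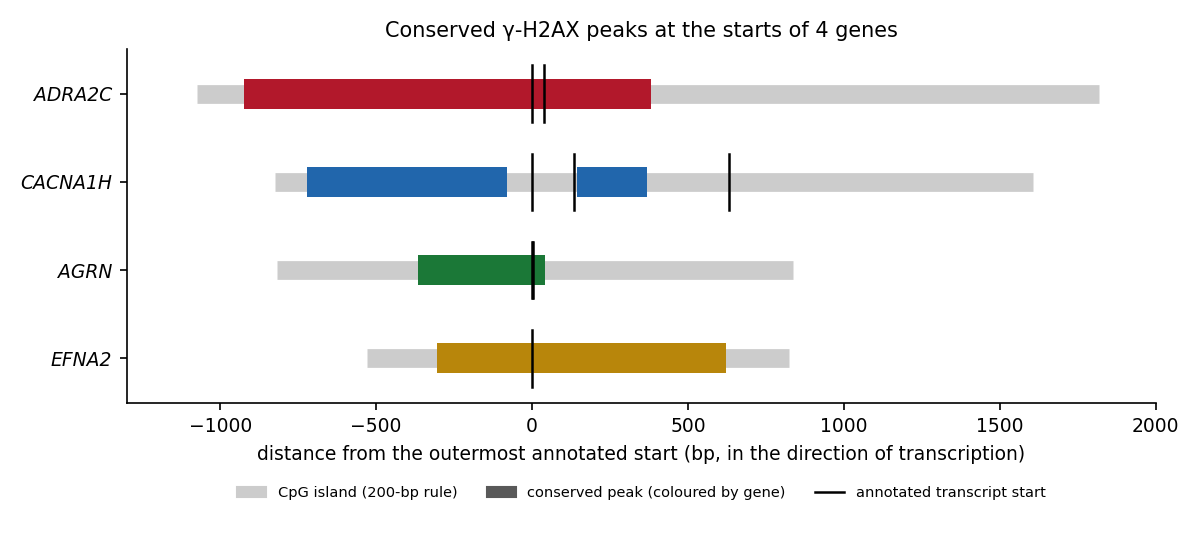
Position of the 5 peaks (coloured bars) relative to the outermost TSS of each gene, in bp in the direction of transcription, with CpG islands in grey and annotated transcript starts as black lines. The peaks of ADRA2C, AGRN and EFNA2 cover the start, and the pair at CACNA1H lies on either side of it.

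**Figure D2:**
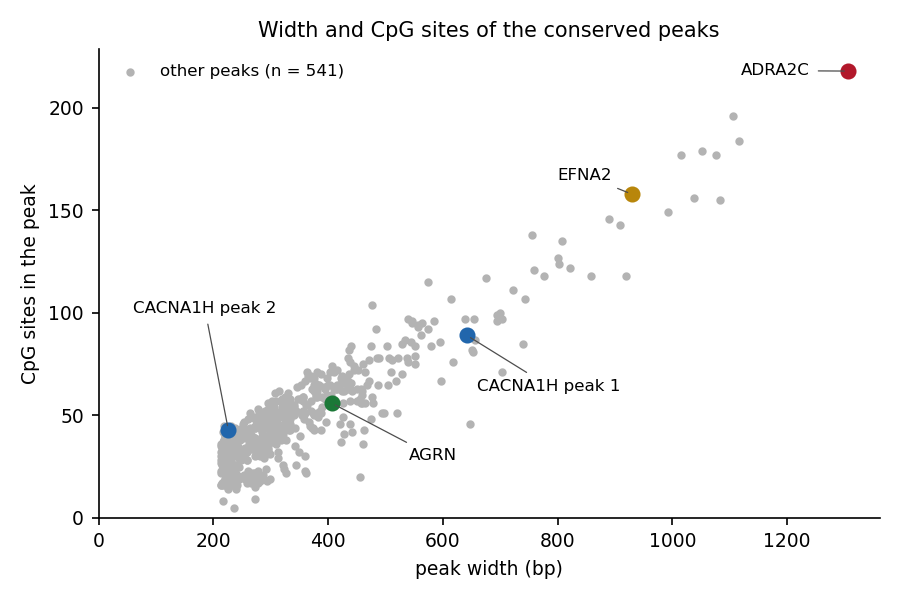
Width (bp) against the number of CpG sites for each of the 546 peaks, with the 5 peaks of the neural genes coloured and the other 541 in grey. ADRA2C is at the upper right end with 1307 bp and 218 sites, while the second CACNA1H peak, 226 bp, is among the narrowest.

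The 5 peaks thus ran from 226 to 1307 bp in width and from 79.0 to 88.1% in GC content. Their places differed too: the start was inside the peak at ADRA2C, AGRN and EFNA2, and outside both peaks at CACNA1H. Among all 440 protein-coding genes with a peak, the start was inside one in 170 (38.6%). The second CACNA1H peak shared its 226 bp with peaks at POU2F1, ARRB1 and ICA1L. Another peak of that width had its nearest start, that of METTL16, 4445 bp away. The AGRN peak shared its 406 bp with IKZF2, next to RAC3 at 405 bp and LSM11 at 407 bp. The first CACNA1H peak stood between 638 bp at ATP6V1E2 and peaks of 648 and 651 bp, whose nearest starts were those of SKAP2, 49684 bp away, and ENSG00000170846, 10441 bp away, and the peaks nearest to EFNA2 in width were 919 bp at ATXN7L3, 909 bp at NACC2 and 889 bp at TFDP1.

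None of the 6 comparison genes had a peak within 2 kb of its outermost start, whereas 2.2% of all protein-coding genes did (440 of 20033). The presence of a peak chose the 4 genes and guided the choice of relatives, so nothing is read from 4 against 0. CACNA1G, the Cav3.1 channel gene, came closest, 214261 bp from a peak, and CACNA1I, the Cav3.3 gene, was 220747 bp away. EFNA3 and EFNA1 were 317882 and 366921 bp away, ADRA2B 769567 bp and ADRA2A 6.96 Mb.

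The promoters were then compared over 1 kb on either side of the start, a window set by the annotation and not by the peak. The genes themselves were chosen by their peaks, and peaks are more frequent at GC-rich promoters. That choice favoured a higher GC content at the 4 genes, so no conclusion is drawn from the difference. CACNA1H had the second highest GC content of all 20033 protein-coding genes, 79.4%. ADRA2C had 76.2% (rank 30), AGRN 75.5% (rank 55) and EFNA2 72.9% (rank 218). All 4 lay above all 6 comparison genes. ADRA2B had 70.9% (rank 465), CACNA1G 70.2% (rank 573), ADRA2A 65.3%, EFNA3 62.4%, EFNA1 59.1% and CACNA1I 55.6% (rank 9505). The medians were 75.8% for the 4 genes, 63.8% for the 6, 65.0% for all protein-coding genes with a peak and 54.8% for those without.

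Among the 10 genes, the one with the peak was thus the richest in GC of its family, an order that the choice of genes favoured. It also had the most CpG sites of those compared, with 292 sites at ADRA2C against 207 at ADRA2B and 166 at ADRA2A, 271 at CACNA1H against 177 at CACNA1G and 30 at CACNA1I, and 208 at EFNA2 against 109 at EFNA1 and 100 at EFNA3. EFNA2 and ADRA2B, at 208 and 207 sites, were nearly level, although only the first has a peak. Outside the 6 relatives, EFNB2, an ephrin gene with no peak, had 260 sites, more than EFNA2, at 71.5% GC. CACNA1I stood apart, with no CpG island overlapping its start and a CpG ratio of 0.196. The island at the start of ADRA2A, 3544 bp, was longer than that of ADRA2C, 2893 bp, although ADRA2A has no peak. The peaks covered 45.2% of the island at ADRA2C, 35.7% at CACNA1H, 24.5% at AGRN and 68.7% at EFNA2.

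Windows of the same width and offset as each peak were also read at the relatives. In place of the 81.3% of the ADRA2C peak, ADRA2B had 73.8% and ADRA2A 67.0%. In place of the 83.5% of EFNA2, EFNA3 had 68.6% and EFNA1 64.5%. For the second CACNA1H peak, at 88.1%, CACNA1G had 77.4% and CACNA1I 64.6%, and for the first, at 79.0%, they had 65.0 and 45.6%. The differences ran from 7.50 points at ADRA2B to 33.3 points at CACNA1I. The windows were placed by the peaks, which are GC-rich across the list. That choice favoured a higher GC content at the gene with the peak, so no conclusion is drawn from the differences.

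In 200-bp windows, the highest GC content lay 150 bp before the start at ADRA2C (87%), 250 bp after it at CACNA1H (90%, in the second peak) and at the start of EFNA2 (87.5%). At AGRN it lay 550 bp before the start (87%), which is upstream of the peak. Among the relatives, EFNA3 reached 82.5% at its start, ADRA2A 82.5% at 1800 bp into the gene and ADRA2B 81.5% at 550 bp before its start. These windows were set every 50 bp and overlap. Those at or above 70% numbered 37 at ADRA2C, 43 at CACNA1H, 41 at AGRN and 33 at EFNA2. Among the 6 there were at most 31, at ADRA2A.

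How often genes of such composition carry a peak gives the scale for these values. Among protein-coding genes with a promoter GC content of 75 to 80%, 29 of 84 had a peak (34.5%, 95% Wilson interval 25.2 to 45.2%, counting error only), and CACNA1H, ADRA2C and AGRN are in this bin. From 70 to 75%, where EFNA2 falls together with ADRA2B and CACNA1G, 70 of 538 had one (13.0%, 10.4 to 16.1%). From 65 to 70% it was 7.51%, where ADRA2A falls, from 60 to 65% 3.64% (EFNA3), and from 55 to 60% 1.46% (EFNA1 and CACNA1I). Most genes as rich as the 4 had no peak in the list. CACNA1B, the Cav2.2 pore of N-type channels, had 75.2% and CPLX1, which encodes the SNARE-binding protein complexin 1, 78.3%, yet their nearest peaks were 561 and 186 kb away.

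The 4 genes also had their place on the chromosome in common. AGRN started 1.02 Mb from a chromosome end, CACNA1H 1.15 Mb, EFNA2 1.29 Mb and ADRA2C 3.77 Mb. All 4 were within 5 Mb of an end, as were 26.9% of the peaks and 12.5% of protein-coding starts, and none of the 6 comparison genes was. CACNA1I was 11.2 Mb from an end, ADRA2A 22.7 Mb and CACNA1G 32.7 Mb, while EFNA1, EFNA3 and ADRA2B were more than 90 Mb away. Position and base composition go together, and the share of genes with a peak is given within GC bins as a description. From 75 to 80% GC it was 35.5% within 5 Mb of an end (22 of 62, 95% Wilson interval 24.7 to 47.9%) and 31.8% farther in (7 of 22, 16.4 to 52.7%). From 70 to 75% it was 13.4% (36 of 269, 9.83 to 18.0%) and 12.6% (34 of 269, 9.19 to 17.1%). From 65 to 70% it was lower near the ends, 7.12% (38 of 534, 5.23 to 9.62%) against 7.71% (82 of 1063, 6.26 to 9.47%). In each bin the intervals overlap, which is not a test. The part of position was not tested, and at the 4 genes it cannot be told apart from base composition.

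Spacing along the chromosome differed from gene to gene. ADRA2C stood alone, with no other peak within 1 Mb, and its neighbours were a peak at NSD2, a histone H3 lysine 36 methyltransferase gene, 1.89 Mb away and one 2.91 Mb away whose nearest start, that of ENSG00000170846, was 10441 bp from it. The AGRN peak was the first on chromosome 1, and the next, near C1orf159, was 95288 bp farther in. At CACNA1H the nearest peaks outside the pair were 179753 bp away at BAIAP3, a gene for a vesicle-trafficking protein, and 436852 bp away at METRN, which encodes the secreted factor meteorin. EFNA2 had the densest surroundings, with 12 other peaks within 1 Mb, among them one at 79246 bp, 28353 bp from its nearest start, that of STK11, the gene for the kinase LKB1, and one at DAZAP1, an RNA-binding protein gene, at 120627 bp. Chromosome 19, where it lies, held 55 of the 546 peaks.

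No other gene started within 2 kb of the outermost start of any of the 4 genes. The closest was that of LINC02600, a non-coding gene on the opposite strand 2958 bp upstream of ADRA2C and 2033 bp from the peak. At the other genes the nearest was 4352 bp (CACNA1H), 6927 bp (AGRN) and 10343 bp (EFNA2, to FAM174C on the same strand) away. Each of the 5 peak sequences matched hg38 at its own place and nowhere else at 90% identity over 80% of the peak.

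Short elements were counted on both strands in each peak. The letters GGGCGG, bound by SP1 and its relatives, occurred 9 times at ADRA2C, 11 and 4 times in the CACNA1H peaks, and 12 times each at AGRN and EFNA2. Per kb this was 6.89 at ADRA2C, 17.1 and 17.7 at CACNA1H, 29.6 at AGRN and 12.9 at EFNA2, with a median of 10.8 over all peaks. The AGRN stretch printed above begins the peak with the densest boxes of the 5, and ADRA2C, with the most CpG sites, had the fewest per kb. At least 1 such box was in 93.4% of the 546 peaks and in 56.8% of 21613 RefSeq promoter windows of 300 bp (GRCh38.p14). Peaks vary in width, so the pair of shares is not a comparison at equal length.

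The pattern of 4 runs of at least 3 guanines with loops of 1 to 7 bases, which can fold into a G-quadruplex and may share bases with GGGCGG, occurred 6 and 3 times at CACNA1H, 5 times at AGRN, 4 times at EFNA2 and once at ADRA2C. It was in 72.2% of the peaks and in 30.7% of the promoter windows. For this pattern and the elements below, peaks vary in width and are GC-rich, so these shares are not a like comparison. CCAAT occurred 2 times at ADRA2C and in none of the other peaks of the 4 genes (11.5% of all peaks, 34.9% of promoter windows). The TATA box (TATAAA), the E-box (CACGTG) and the core of the NRF1 motif (GCATGCGC) were found in none of the 5. TATAAA was in 1.10% of all peaks and 9.45% of promoter windows, the E-box in 10.4 and 8.35%, and the NRF1 core in 5.86 and 3.73%. In the RefSeq promoter windows of the 6 genes matched there, ADRA2C had 83.0% GC and 51 CpG sites and EFNA2 85.3% and 47, against 69.3% and 26 at ADRA2A, 71.7% and 28 at EFNA1, 69.3% and 28 at EFNA3, and 62.7% and 6 at CACNA1I. The window of ADRA2A held a TATA box and an E-box once each, as can be read in the stretch above.

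The pathways of the 4 genes were described with 10 lists of related genes, chosen with the peaks known. ADRA2C was the 1 of 9 adrenergic receptor genes with a peak, and the closest of the others, ADRA1D, was 428614 bp from one. Downstream of α2 receptors, 4 of 27 effector genes had a peak. These were GNB1, a G protein β subunit (801 bp), ADCY3, an adenylyl cyclase (330 bp), GRK3, a receptor kinase (415 bp), and ARRB1, β-arrestin 1 (226 bp). GRK2 came closest without one, at 22437 bp, and the richest promoter without one was that of the adenylyl cyclase gene ADCY5, at 76.0% GC.

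CACNA1H was the 1 of 10 genes for pores of voltage-gated calcium channels with a peak, and 1 of 16 genes for their auxiliary subunits, CACNA2D2, had one (275 bp), with CACNG5 the closest of the others at 532275 bp. AGRN was the 1 of 20 genes of the agrin pathway and the neuromuscular junction. Its receptors LRP4 and MUSK had none, and CHRNE, the ε subunit of the acetylcholine receptor, had its start 5406 bp from a peak. EFNA2 was the 1 of 8 ephrin genes, with EFNB3 the closest of the rest at 179871 bp. Of 14 Eph receptor genes 1 had a peak, EPHB2, and that peak, 1038 bp wide with 156 CpG sites at 82.3% GC, exceeded that of EFNA2 in width. EPHA8 was the closest Eph receptor gene without one, at 147086 bp.

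Among 46 other axon guidance genes, 4 had a peak. PLXNA1, a semaphorin co-receptor, had one of 1016 bp with 177 CpG sites, and UNC5A, a netrin receptor, SEMA4D and SEMA6B, semaphorins, had peaks of 474, 427 and 285 bp, while SEMA4G was 30261 bp from one. The SEMA6B peak was at its outermost start and not at the canonical one. None of 27 genes for presynaptic release had one, SYT3 being closest at 55070 bp. Of 20 postsynaptic scaffold and adhesion genes, SHANK3 had a peak (529 bp, 84.5% GC), 0.144 Mb from a chromosome end, and SHANK1 was 24605 bp from one. With starts of any transcript, DLGAP4 had a peak as well. In all, 15 of 197 genes in the lists had a peak (7.61%), or 11 of 193 (5.70%) without the 4 that led to them, beside 2.2% of all protein-coding genes. The promoters of the 193 were also GC-rich, with a median of 61.9% against 55.0% for all protein-coding genes, and the shares of the GC bins applied to them give 9.34 genes (4.84%). Nothing particular to the neural lists is read from the 11.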

How the data were processed

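γ-H2AX and H2AX ChIP-Seq samples of HCT116 TRAIP-mAID cells, without and with IAA, were grouped by their labels. The authors aligned reads to hg38 with Bowtie2 2.4.2, called peaks with MACS2 2.1.1 in each repeat and intersected both sets with bedtools, as the methods and the submitters' processing notes give it. The deposited table holds positions only, whose starts were read as 0-based and are printed 1-based. Whether the intersection kept whole intervals or only their shared pieces is not given in the sources used here, so a width may be either. The list gives no strength and no read number. The study states the depth of each library, greater in the first repeat than in the second, which was not used here.

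Positions were compared with GENCODE 44. A peak counted for a gene if at least 1 bp of it fell within 2 kb of the outermost start. CpG islands were built from 200-bp windows with at least 50% GC and a CpG ratio of 0.6. Elements were counted in the peaks and in RefSeq promoter windows (GRCh38.p14), which matched 6 of the 10 genes. Matches elsewhere were sought with blastn 2.17.0. Python 3.11.15, numpy 2.4.6, pandas 2.3.3, scipy 1.17.1, pysam 0.24.0, samtools 1.23.1 and matplotlib 3.10.9 were used, and the assignment of peaks was tested on simulated data. No test was made. The genes and lists were chosen with earlier results of these data known. Named are the 4 genes, their 6 relatives, neighbours, list genes with a peak and the closest without. The 3 peaks most like each in width are named too, and ICA1L for its tie with the second CACNA1H peak. CACNA1B, CPLX1, ADCY5, EFNB2, LRP4, MUSK and DLGAP4 were chosen after their values were seen. So were the genes with more than 1 peak and the genes starting closest to the 4. Alternatives were other windows, starts, merging, width minimum and coordinate base. Protein identity and signal per sample were not analysed here.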

Additional observations from a re-analysis of the deposited data

How the results depend on the processing

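Of 58 alternative values for 31 results, 48 were labelled the same, 10 moved and 0 reversed. The labels do not follow the size of the change alone. GC content of the second CACNA1H peak went from 88.1 to 83.3% in 1 kb around the midpoint and was labelled the same. The width rank of AGRN, 136 to 145 on merging, was also labelled the same. At EFNA2 the change from 83.5 to 87.0% GC in 300 bp was labelled moved. The counts are therefore only a rough guide. The 4 genes kept a peak and the 6 relatives had none with windows of 1 or 5 kb. The same held with canonical starts or starts of any transcript, by midpoint, and with only peaks at least as wide as the median. The genes were chosen by the presence of a peak, and no relative started nearer than 214261 bp to one. These alternatives could therefore hardly change the outcome, and nothing is read from it. The share of protein-coding genes with a peak moved from 2.2% to 2.57% with starts of any transcript and to 1.25% with the wide peaks. Of the list genes, 14 had a peak with canonical starts and 16 with starts of any transcript, against 15. With peaks within 1 kb merged, CACNA1H had 1 peak and rank 8 in width, ADRA2C rank 3 and EFNA2 rank 20. In 300 bp around the midpoint, GC content rose to 85.7% at ADRA2C and 87.0% at EFNA2 and fell to 86.0% in the second CACNA1H peak. It was 80.3% in the first CACNA1H peak and 83.3% at AGRN. In 1 kb around the midpoint it was 83.1% at ADRA2C, 82.8% at EFNA2 and 81.2% at AGRN. The CACNA1H peaks had 78.6 and 83.3% there. The midpoint of the second CACNA1H peak was 121 bp from the nearest start of any transcript, against 256 bp from the outermost start. The difference of median promoter GC content, 12.0 points, was 13.1 with 300 bp on either side and 12.3 with canonical starts. No paired analysis was possible because the peaks are those found in both repeats, with no values for single samples, and for the same reason no repeat could be left out.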
